A study of Drosophila melanogaster with 6 samples.

Results

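The neuronal and synaptic genes described here are 35 genes for neuronal identity, transmitter release, excitability and synaptic contact, and 32 of them were measured among 11983 genes. They are a list of gene names, and no threshold on a measured value defines it. The list was chosen with earlier results of these data known, so the shares over all genes given beside it describe it and do not test it. A gene counted as measured where the array annotation pairs its symbol with a probe set (a group of short probes for 1 transcript) that belongs to no other gene. Where a gene had several such probe sets, the one with the highest mean over the 6 arrays stood for it. Syx1A, comt and Caps had no probe set under these symbols. The first 2 are not analysed here, and Caps, an older name of Cadps, is given apart.

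RNA of whole Drosophila melanogaster embryos at stages 11 to 16 was measured on 6 arrays, 3 per group, numbered 1 to 3 in each. A temperature of 25 °C is given for every sample. The wild type embryos were Oregon R. The others carried a UAS-Sage transgene under the tub-Gal4 driver, also in the Oregon R background, and are called Sage embryos below. Sage, a transcription factor of the bHLH family, is normally made in the salivary gland, whereas tub-Gal4 is active in most cells, neurons included. The labels name no control group with the driver or the transgene alone. Every embryo was sorted on a COPAS instrument before RNA was taken, and the property used for sorting is not given. Stages 11 to 16 are the time in which embryonic neurons differentiate, extend axons and begin to form synapses. Values are log2 expression after RMA, the usual summary of Affymetrix probe sets, so a difference of 1 is a doubling.

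In flies as in other animals, neurons are told apart from their precursors by RNA-binding proteins such as Elav, which is made in every neuron and changes how transcripts are spliced. A neuron releases transmitter when calcium enters through the Cacophony channel at the active zone, where Bruchpilot, Rim and Unc-13 hold vesicles ready and the SNARE proteins fuse them with the membrane. Most synaptic genes are switched on late in embryogenesis, as axons reach their targets, so their RNA level in a whole embryo depends on both the number of neurons and their age. In RNA from whole embryos, fewer cells of a type and less RNA per cell cannot be told apart.

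The transgene was visible in each array. Sage RNA read 7.68, 8.08 and 7.40 on the wild type arrays and 12.17, 12.31 and 12.28 on the Sage arrays, a log2 difference of 4.53 (SE 0.18, limma adjusted p 5.9e-05). Most of the neuronal genes leaned upward, but none passed when tested singly, and the group as a whole was not tested. At an adjusted p under 0.05 in limma, 0 of the 32 passed upward and 0 downward, where 4.36% of all genes rose and 3.72% fell. Adjusted p-values ran from 0.125 for VAChT to 0.996 for para. At an unadjusted p under 0.05, 5 were higher and 0 lower, against 11.7% and 12.8% of all genes. The median log2 difference was 0.26 over these genes and -0.01 over all genes, and 27 of the 32 values were positive, where 48.9% of all genes had a positive value. For 9 of them all Sage arrays exceeded all wild type arrays, and for 1 the order was opposite, against 15.7% and 16.1% of all genes. The 95% intervals of the 32 differences spanned -1.74 to 3.03, and 14 of them reached 1 or more, so a doubling was not outside the interval for those genes.

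**Figure D1:**
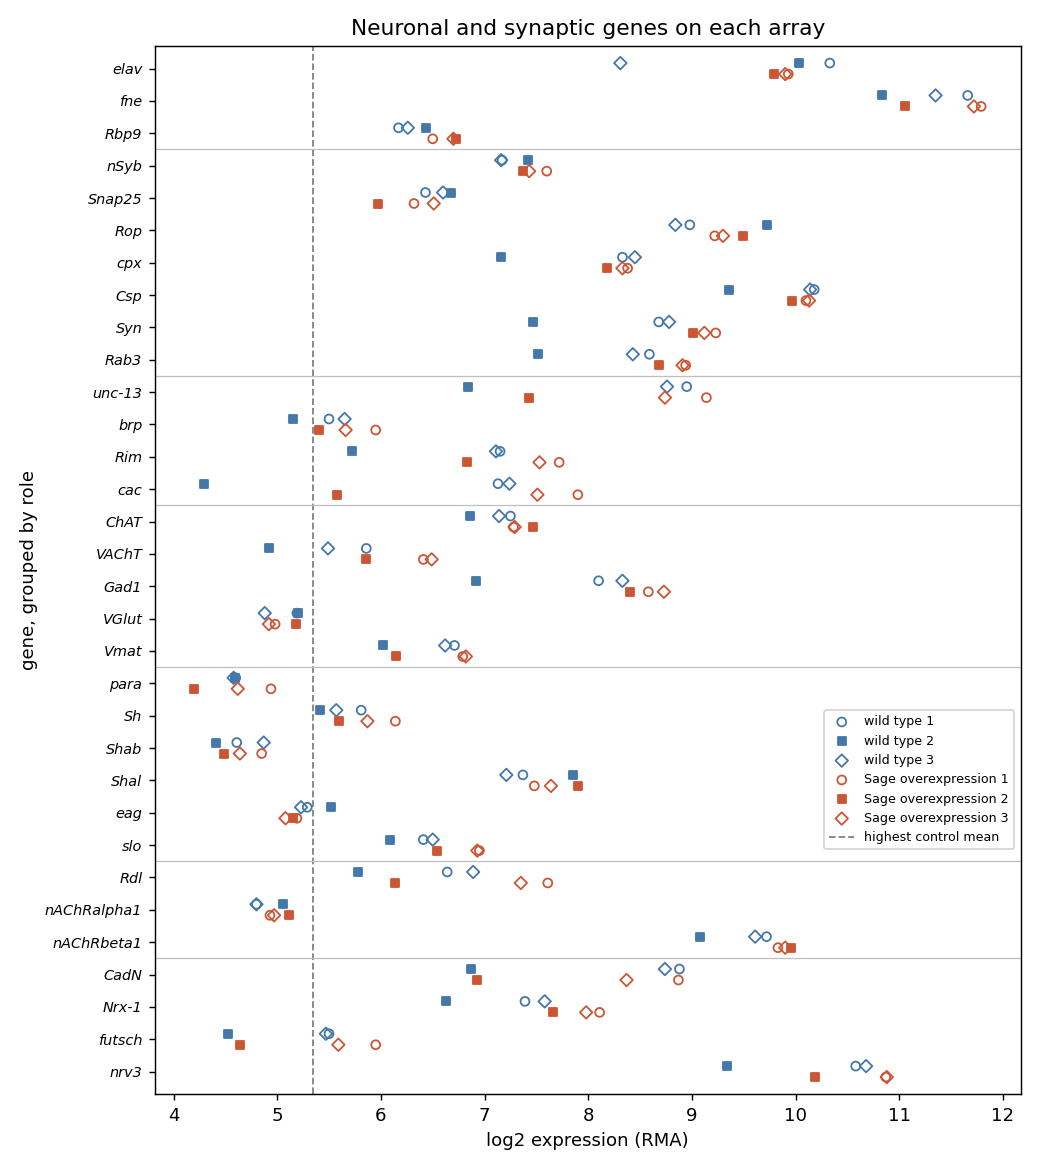
Log2 expression (RMA) of the 32 genes on each array, grouped by role with grey lines between roles. Blue marks are wild type and orange marks Sage overexpression, filled squares are the arrays numbered 2, and the dashed line is the highest mean of control probe sets without a fly target (5.35). For 20 genes the filled square lies left of the open marks of its colour in both groups.

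The arrays numbered 2 stood apart from the others for most of these genes. In both groups at once, array 2 was the lowest of its 3 arrays for 20 of the 32 genes and the highest for 5, where the shares over all genes were 19.1% and 32.3%. The remaining 7 had no such common place. The gap between array 2 and the mean of arrays 1 and 3 had a median of -0.62 in wild type and -0.32 in Sage overexpression over these genes, and of 0.07 and 0.04 over all genes. It was at least 1 log2 unit downward in both groups for cac, unc-13 and CadN, 3 of 32 genes, against 0.993% of all genes. The 5 genes that were highest on array 2 in both groups were Rbp9, Rop, VGlut, Shal and nAChRalpha1, of which VGlut and nAChRalpha1 lay in the range of the controls. The median SD of the neuronal genes was 0.44 in wild type and 0.22 in Sage overexpression, against 0.19 and 0.12 for all genes, and 24 of the 32 varied more in wild type.

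**Figure D2:**
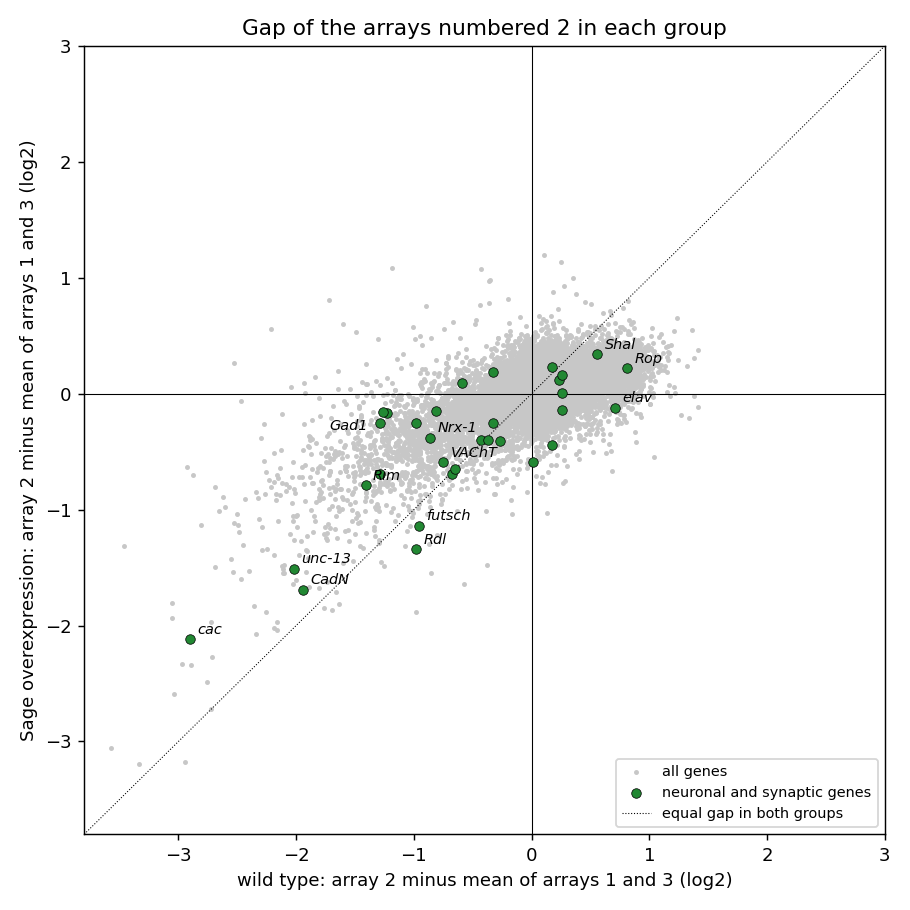
Gap between array 2 and the mean of arrays 1 and 3, in log2 units, in wild type (x) and in Sage overexpression (y). Grey points are all genes, green points the 32 neuronal genes, and the dotted line marks equal gaps. cac, unc-13 and CadN lie far down in both groups, at -2.90 and -2.12 for cac, while Rop and Shal lie above 0 in both.

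Since the arrays numbered 2 deviated alike in both groups, the comparison was also made with the replicate number as a block. This compares Sage 1 with wild type 1 and so on, although it is not known whether numbers 1 and 3 pair the samples. With the replicate block 4 of the 32 genes passed upward and 0 downward, against 7.35% and 7.39% of all genes. They were Rim, VAChT, slo and Nrx-1. Without both arrays numbered 2, again 4 passed upward, VAChT, slo, Nrx-1 and Rdl, and 0 downward, against 6.0% and 4.93% of all genes. With arrays weighted by their quality 8 passed upward and 0 downward, where 16.8% and 17.1% of all genes did, namely Rbp9, nSyb, Rop, Syn, VAChT, Gad1, slo and Nrx-1. VAChT, slo and Nrx-1 passed under each of these 3 settings and in none of the fits without the block that left out 1 array. Within each number the median over the 32 genes was alike, at 0.26, 0.27 and 0.27 for Sage minus wild type at numbers 1, 2 and 3, with 26, 25 and 25 genes higher in the Sage sample. Single genes were less even, and for 13 genes the difference at number 2 was the highest of the 3, near the 34.4% of all genes.

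**Figure D3:**
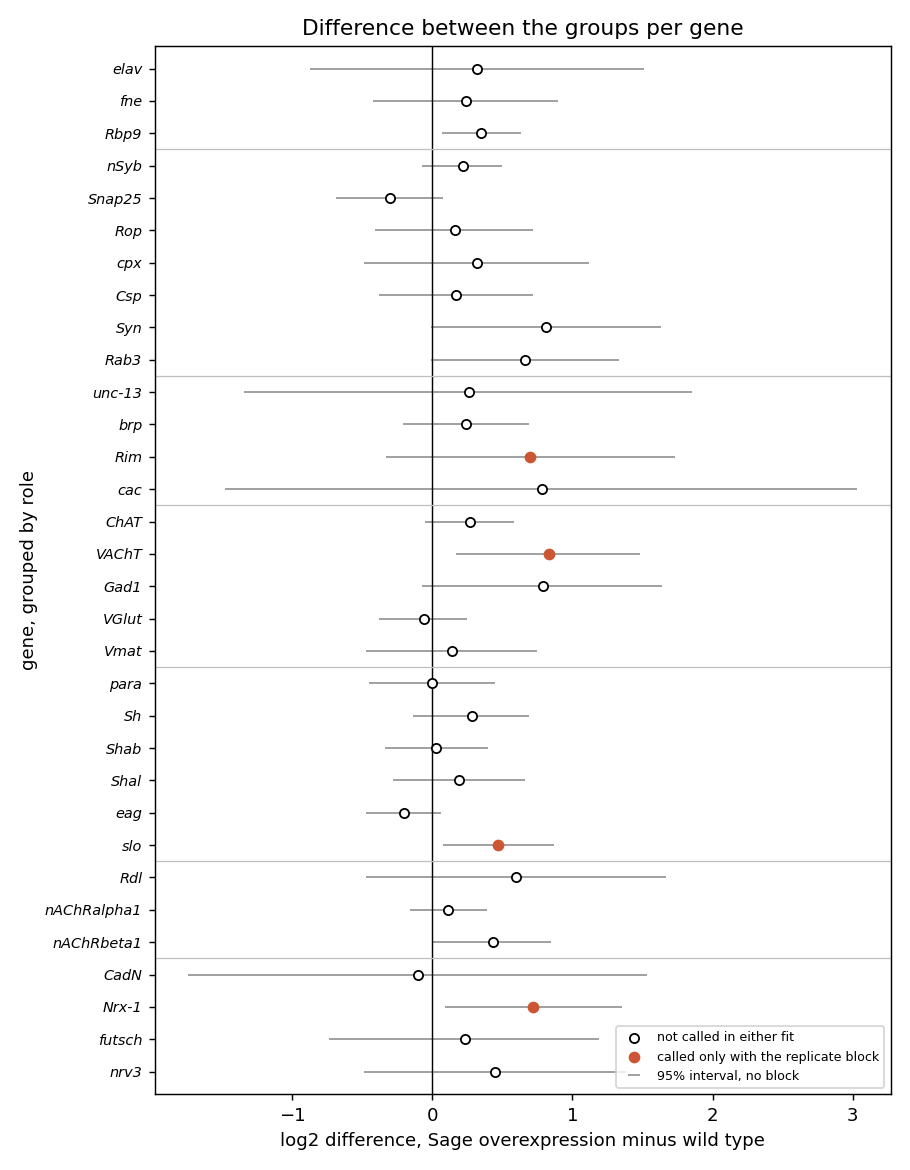
Log2 difference, Sage overexpression minus wild type, for each of the 32 genes with the 95% interval of the limma fit without a block. Filled orange points are the 4 genes called with the replicate block and not without it, Rim, VAChT, slo and Nrx-1. 27 of the 32 points lie right of 0, and the intervals of cac, unc-13 and CadN are the widest.

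The RNA-binding proteins of the Elav family define neurons, and none of the 3 passed. The elav probe set read 10.33, 10.03 and 8.31 in wild type and 9.93, 9.79 and 9.90 in Sage overexpression. Wild type array 3 stood far below the other wild type arrays, and all Sage arrays lay between. The log2 difference of 0.32 (SE 0.50, adjusted p 0.765) became -0.30 without wild type array 3. For fne (found in neurons), the values were 11.66, 10.83 and 11.35 in wild type and 11.79, 11.06 and 11.72 in Sage overexpression. Array 2 was the low one in both groups, the groups overlapped, and the difference was 0.24 (SE 0.28, adjusted p 0.662). Rbp9, the third fly member of this family, read 6.17, 6.44 and 6.26 against 6.50, 6.72 and 6.70. Its groups did not overlap and its difference was 0.35 (SE 0.12, adjusted p 0.128). Of these 3 genes elav alone was lowest on wild type array 3, and it has no other probe set of its own on the array.

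Among 7 measured genes of vesicle fusion and release 0 passed in either fit, 6 had positive values, and the median difference was 0.22. Synapsin (Syn), which tethers vesicles in the reserve pool, read 8.68, 7.47 and 8.78 in wild type and 9.23, 9.01 and 9.12 in Sage overexpression. The groups did not overlap, and wild type array 2 was far below the rest. The difference of 0.81 (SE 0.34) had an adjusted p of 0.207, and of 0.079 with the block. The vesicle GTPase gene Rab3 had the same layout, at 8.59, 7.52 and 8.43 against 8.94, 8.68 and 8.91, with a difference of 0.66 (SE 0.28, adjusted p 0.208). For both genes the Sage minus wild type value at number 2 (1.54 and 1.15) exceeded that at numbers 1 and 3 (0.55 and 0.34 for Syn, 0.35 and 0.48 for Rab3).

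The SNARE proteins themselves behaved differently from these. nSyb, the vesicle SNARE of neurons, read 7.17, 7.42 and 7.16 in wild type and 7.60, 7.37 and 7.43 in Sage overexpression, with a difference of 0.22 (SE 0.12, adjusted p 0.337). Here array 2 was the highest in wild type and the lowest in Sage overexpression. Snap25, a SNARE of the plasma membrane, had the most negative value of the 32 genes, at -0.30 (SE 0.16, adjusted p 0.310). It read 6.43, 6.68 and 6.60 in wild type and 6.32, 5.97 and 6.51 in Sage overexpression, so the groups overlapped. Rop, the Sec1-type partner of the plasma membrane SNAREs, was highest on array 2 in both groups, at 9.72 and 9.49. Its difference was 0.16 (adjusted p 0.757). Complexin (cpx), which clamps the assembled SNAREs, and the vesicle chaperone Csp were low on wild type array 2, at 7.16 and 9.36. Their differences of 0.32 and 0.17 became -0.04 and -0.05 without both arrays numbered 2. Cadps, a dense-core vesicle priming factor listed here as Caps, read 8.59, 7.05 and 8.41 against 8.18, 7.54 and 7.87, with a difference of -0.15 (SE 0.41, adjusted p 0.879), and is not counted among the 32.

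Active zone genes were low at number 2 throughout. All 4 were lowest on array 2 in both groups, all 4 had positive differences with a median of 0.48, and 0 passed without the block. The calcium channel gene cac read 7.13, 4.29 and 7.24 in wild type and 7.90, 5.58 and 7.51 in Sage overexpression. Wild type array 2 fell into the range of control probe sets without a fly target, whose group means went up to 5.35, and Sage array 2 stood just above it. At each number the Sage sample was higher, by 0.76, 1.29 and 0.27. The difference of 0.78 had an SE of 0.94 without the block (adjusted p 0.686) and of 0.20 with it (adjusted p 0.056). The vesicle priming gene unc-13 read 8.95, 6.84 and 8.76 in wild type and 9.14, 7.43 and 8.74 in Sage overexpression. Its array 2 gaps were -2.02 in wild type and -1.51 in Sage overexpression, and the groups overlapped, with a difference of 0.26 (SE 0.67, adjusted p 0.868). Rim, a scaffold that binds Rab3 on vesicles, read 7.15, 5.72 and 7.11 against 7.72, 6.83 and 7.53. The Sage sample was higher at each number, by 0.57, 1.11 and 0.42, and the difference of 0.70 had an adjusted p of 0.383 without the block and 0.040 with it. brp, the ELKS-related core protein of the fly active zone, was close to the control range at 5.50, 5.15 and 5.65 against 5.95, 5.40 and 5.66 (difference 0.24, adjusted p 0.508).

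Of the 5 genes that make or load transmitters, VAChT and Gad1 had the larger differences. VAChT, the vesicle transporter for acetylcholine, read 5.86, 4.92 and 5.49 in wild type and 6.41, 5.86 and 6.49 in Sage overexpression. Its wild type mean of 5.42 was just above the control range, which went up to 5.35, and wild type array 2 lay inside that range. The highest wild type and the lowest Sage array all but met, and the Sage sample was higher at each number, by 0.55, 0.94 and 0.99. The difference was 0.83 (SE 0.27), with an adjusted p of 0.125 without the block and 0.016 with it. ChAT, which makes acetylcholine and shares its locus with VAChT, read 7.25, 6.86 and 7.14 against 7.28, 7.47 and 7.29. Its groups did not overlap either, with a difference of 0.27 (SE 0.13, adjusted p 0.281). The ChAT difference was 0.03, 0.61 and 0.15 at numbers 1, 2 and 3, and 0.09 without both arrays numbered 2 (adjusted p 0.6). Gad1, which makes GABA from glutamate, read 8.10, 6.92 and 8.33 in wild type and 8.58, 8.40 and 8.73 in Sage overexpression. Its difference of 0.79 (SE 0.36, adjusted p 0.237, and 0.074 with the block) was largest at number 2, at 1.48 against 0.48 and 0.41. The monoamine transporter gene Vmat had a difference of 0.14 (adjusted p 0.799) and an array 2 gap of -0.65 in both groups. VGlut, the glutamate transporter of motor neuron vesicles, lay in the control range on both groups' means, 5.09 and 5.03, and allows no statement.

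Of 6 sodium and potassium channel genes only slo passed with the block, and 0 without it. The calcium-activated potassium channel gene slo read 6.41, 6.09 and 6.50 in wild type and 6.95, 6.54 and 6.93 in Sage overexpression. The groups did not overlap, and the shifts at the 3 numbers were close to each other, at 0.54, 0.45 and 0.43. The difference of 0.47 (SE 0.16) had an adjusted p of 0.140 without the block and 0.034 with it. Shal, a fast-inactivating potassium channel of cell bodies and dendrites, was highest on array 2 in both groups, at 7.85 and 7.90, with a difference of 0.19 (adjusted p 0.618). The Shaker gene (Sh) read 5.81, 5.41 and 5.57 against 6.14, 5.60 and 5.87, with a difference of 0.28 (SE 0.17, adjusted p 0.391). The sodium channel gene para and the potassium channel genes Shab and eag had both group means in the control range, and eag was the gene for which every Sage array lay below every wild type array (5.29, 5.52 and 5.23 against 5.19, 5.15 and 5.08). With VGlut and nAChRalpha1 these make 5 of the 32 genes in that range, which leaves 27 with a mean above it.

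Transmitter receptors gave 0 calls in 3 genes in either fit. Rdl, the GABA-gated chloride channel subunit, read 6.64, 5.78 and 6.89 in wild type and 7.61, 6.14 and 7.35 in Sage overexpression. The array 2 gaps were -0.98 and -1.34, and the Sage sample was higher at each number, by 0.97, 0.36 and 0.46. Its difference of 0.60 had an adjusted p of 0.483, of 0.051 with the block and of 0.038 without both arrays numbered 2. The acetylcholine receptor subunit gene nAChRbeta1 read 9.72, 9.08 and 9.61 against 9.83, 9.96 and 9.90, without overlap, and its difference of 0.43 (SE 0.18) had an adjusted p of 0.202. On the Sage side its array 2 was the highest, so it lacked the common gap. nAChRalpha1, another subunit of this receptor family, lay in the control range (difference 0.11, adjusted p 0.614).

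Genes of adhesion, the cytoskeleton and the sodium pump gave 1 call with the block, Nrx-1, and 0 without it. CadN, the neuronal cadherin that axons use for target layers, read 8.88, 6.87 and 8.74 in wild type and 8.87, 6.93 and 8.37 in Sage overexpression. The array 2 gaps were -1.94 in wild type and -1.69 in Sage overexpression, arrays 1 nearly coincided, and the difference was -0.10 (SE 0.68, adjusted p 0.952, and 0.644 with the block, SE 0.13). Neurexin (Nrx-1), an adhesion protein of the presynaptic side, read 7.39, 6.63 and 7.58 against 8.11, 7.66 and 7.98. The groups did not overlap, and the difference of 0.72 (SE 0.26) had an adjusted p of 0.155, and of 0.030 with the block. futsch, the fly relative of the microtubule protein MAP1B, read 5.50, 4.53 and 5.47 against 5.95, 4.64 and 5.59, inside the control range on array 2 of both groups (difference 0.23, adjusted p 0.795). nrv3, a beta subunit of the sodium pump of neurons, read 10.58, 9.34 and 10.68 against 10.87, 10.19 and 10.88 (difference 0.45, SE 0.39, adjusted p 0.553). All 4 genes of this role were lowest on array 2 in both groups.

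Genes with several probe sets did not give 1 picture throughout. The 32 genes have 55 probe sets, and of the 23 not used above, 17 had both group means in the control range and 6 did not. In a fit over all probe sets 0 of the 55 passed, and 5 did with the block. These were the probe sets that stand for Rim, VAChT, slo and Nrx-1 and a second one for Sh, with a difference of 0.68 (adjusted p over probe sets 0.291, and 0.022 with the block). That Sh probe set read 5.61, 4.53 and 5.35 in wild type and 6.22, 5.46 and 5.87 in Sage overexpression. For Rim, a second probe set above the control range did not share the call. It read 5.70, 5.46 and 5.78 against 5.86, 5.56 and 5.85. Its difference was 0.11 (adjusted p over probe sets 0.724, and 0.517 with the block). Another Sh probe set, with both group means in the control range, read 5.67, 3.62 and 5.30 against 5.30, 3.73 and 4.63, and so had array 2 gaps of -1.86 and -1.24 where the brightest Sh probe set had -0.27 and -0.41. The second probe set of nAChRbeta1 behaved likewise, at 6.53, 4.93 and 6.35 against 6.69, 5.58 and 6.57, with gaps of -1.51 and -1.04 where the brightest had -0.59 and 0.09. For cac the second probe set averaged 4.1, in the control range, and had gaps of 0.02 and -0.17.

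Other neuronal genes were counted in 6 lists. Neither the vesicle cycle and active zone list (23 of 30 measured) nor the axon growth and guidance list (37 of 45) nor transmitter synthesis and transport (13 of 17) had a gene past the threshold, where 4.36% of all genes rose and 3.72% fell. The counts with the block in all 6 lists and in the marker lists stand beside 7.35% of all genes raised and 7.39% lowered. Those without it stand beside 4.36% and 3.72%. With the block the transmitter list had 4 raised, the transporter genes DAT, Gat, Eaat2 and ChT, and 0 lowered, with a list median of 0.29. The wild type mean of Eaat2, 5.10, lay in the control range. The choline transporter gene ChT, which supplies ChAT, read 6.76, 7.02 and 6.81 against 7.27, 7.31 and 7.39 (difference 0.46, adjusted p 0.054, and 0.049 with the block). In the vesicle list the dynamin gene shi passed upward with the block, and Liprin-alpha and Cdk5 downward, around a median of 0.03. In the guidance list the block gave NetB upward and PlexB and Nrt downward, around a median of -0.09, and 23 of its 37 genes were lowest on array 2 in both groups.

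Of 24 measured genes in the list of other transmitter receptors, 2 rose without the block and 0 fell, where 4.36% of all genes rose and 3.72% fell. GluRIIA, a glutamate receptor subunit of the muscle side of the synapse, read 6.58, 6.81 and 6.87 in wild type and 7.39, 7.74 and 7.77 in Sage overexpression. It rose 1.85-fold (SE 0.14 on the log2 scale, adjusted p 0.017), and Nmdar1, a subunit of the NMDA receptor, rose to 5.77 from 5.16, a level within the control range, so that no fold is given (adjusted p 0.046). GluRIIA lost its call without Sage array 2 or 3 (adjusted p 0.08 and 0.092), and Nmdar1 without any 1 array (adjusted p 0.05 to 0.192), without both arrays numbered 2 (0.099), with median centring (0.06) or with quantile normalization (0.065). With the block 6 receptor genes were raised, the others being GluRIIE, nAChRbeta2, Lcch3 and GABA-B-R3, and nAChRalpha4 was lowered. The wild type mean of GABA-B-R3 (4.75) and the Sage mean of nAChRalpha4 (5.12) lay in the control range. The shares over all genes with the block were 7.35% raised and 7.39% lowered. Of 28 other ion channel genes 0 rose and 2 fell without the block, beside 4.36% and 3.72% of all genes. Both that fell were potassium channels of the leak or inward-rectifier kind. Ork1 fell from 5.57, 5.92 and 5.29 to 4.23, 3.89 and 4.17, inside the control range, and Irk3 from 6.32, 6.89 and 6.14 to 5.56, 5.63 and 5.58 (adjusted p 0.0067 and 0.048). The adjusted p of Irk3 was 0.089 when wild type array 1 was left out, and 0.153, 0.143 and 0.18 when Sage array 1, 2 or 3 was. It was 0.067 with quantile normalization and 0.054 when adjusted over all probe sets. With the block Ih, stj, qvr and RyR passed upward in that list, beside the same 2 falls, again against 7.35% and 7.39% of all genes.

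The list of transcription and RNA-binding factors of neurons leaned the other way. Of its 34 measured genes 0 rose and 3 fell, 10 had positive values, and the median was -0.25, beside 3.72% lowered, 48.9% positive and a median of -0.01 over all genes. The RNA-binding gene mub read 6.76, 5.98 and 6.43 in wild type and 4.79, 4.57 and 4.88 in Sage overexpression (adjusted p 0.0072). Its Sage values lie inside the control range, so the size of the fall is not given, and the adjusted p was 0.089 with its probe sets averaged. brat, a translational repressor that limits neuroblast growth, read 8.26, 8.77 and 8.74 against 7.09, 7.24 and 7.43 (difference -1.34, adjusted p 0.0074). pdm2, a POU-domain factor of the neuroblast time series, had a difference of -0.77 (adjusted p 0.022), and its adjusted p rose to 0.066 when wild type array 1 was left out and to 0.091, 0.062 and 0.111 when Sage array 1, 2 or 3 was. In none of the 3 did the groups overlap. With the block jim, lola and pum joined them, and acj6 and shep passed upward. Both group means of acj6, 4.23 and 4.68, lay in the control range, so its call allows no statement.

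**Figure D4:**
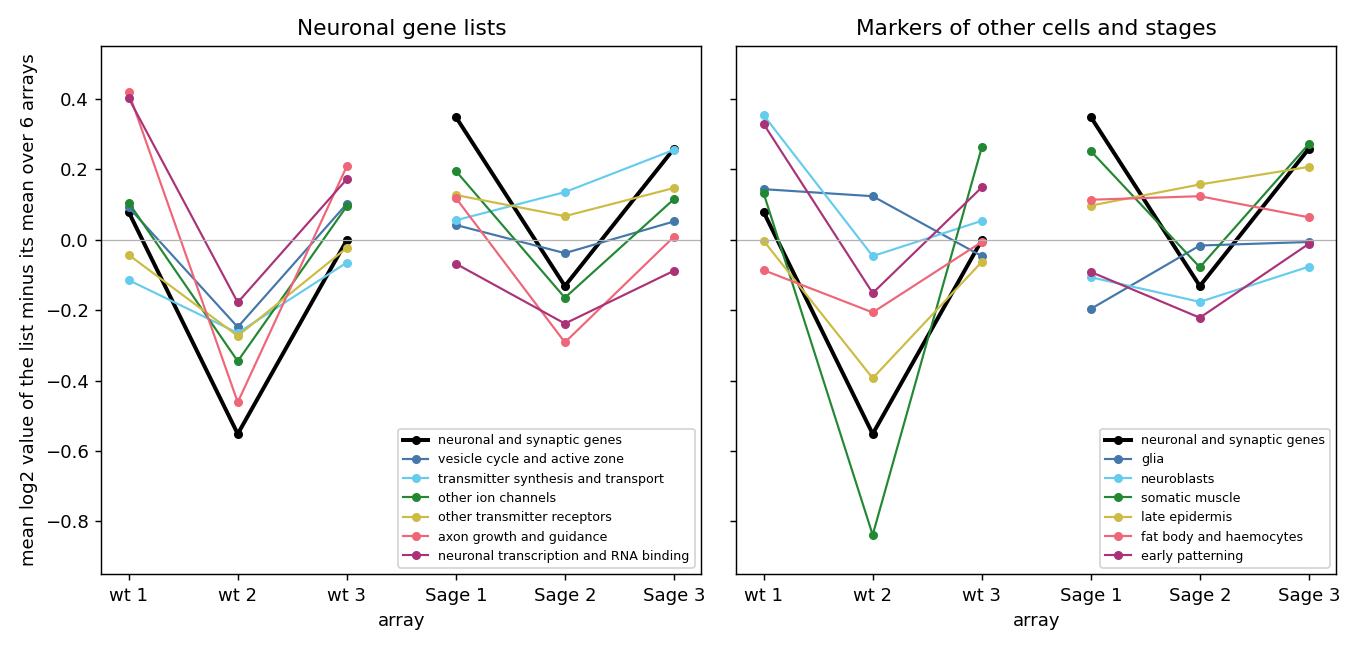
Mean log2 value of each gene list on each array, minus the mean of that list over the 6 arrays. The left panel shows the neuronal lists and the right panel the markers of other cells and stages, with the 32 neuronal and synaptic genes in black in both. Wild type 2 is the lowest wild type array in every list but glia, and somatic muscle has the deepest gap there.

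Among the markers of other cell types, those of muscle had a course over the arrays like that of the neuronal genes. The low at array 2 was not particular to muscle. Array 2 was lowest in both groups for 7 of 12 muscle and 7 of 11 neuroblast markers, against 19.1% of all genes. In each of the other marker lists this held for 2 to 4 genes. On arrays 1, 2 and 3 the mean over the 32 neuronal genes was 7.37, 6.74 and 7.29 in wild type and 7.64, 7.16 and 7.55 in Sage overexpression. Somatic muscle markers (12 measured of 17) read 10.66, 9.69 and 10.79 and then 10.78, 10.45 and 10.80, with 11 of 12 differences positive, a median of 0.30 and 0 genes past the threshold. Their member with the smallest p was TpnC73F, a troponin C gene (difference 0.47, adjusted p 0.215). Late epidermal markers (10 of 10) read 9.70, 9.31 and 9.64 and then 9.80, 9.86 and 9.91, with a median of 0.34 and 1 gene raised, serp, a chitin deacetylase (difference 0.55, adjusted p 0.038, and 0.052 to 0.169 in the 5 fits that left out 1 array other than wild type 2). serp missed the threshold also with quantile normalization (0.053), with dim genes left out (0.057) and without both arrays numbered 2 (0.062). Neuroblast markers (11 of 12, brat among them) went from 8.60, 8.20 and 8.30 to 8.14, 8.07 and 8.17, with a median of -0.16, brat lowered and dpn lowered with the block. Early patterning genes (10 of 12) went from 7.30, 6.82 and 7.12 to 6.88, 6.75 and 6.96, with a median of -0.13, 0 calls without the block and hb lowered with it. The smallest p in that list was that of en (difference -0.45, adjusted p 0.10). The part of muscle, epidermal or stage differences in the neuronal values was not tested.

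Glial markers (9 of 10) went from 9.50, 9.48 and 9.31 to 9.16, 9.34 and 9.35 and did not share the gap at number 2. nrv2, listed here among the glial markers, fell 2.43-fold (difference -1.28, adjusted p 0.0091), whereas alrm rose 1.44-fold (adjusted p 0.031). In RNA from whole embryos these values do not show in which cells a change took place. nrv2 lost its call without Sage array 3 (adjusted p 0.057), and alrm without any 1 array but wild type 2 (adjusted p 0.065 to 0.146), with median centring (0.052), with dim genes left out (0.053) and with trend and robust moderation (0.061). The glial transcription factor gene repo read 9.69, 10.07 and 9.36 against 9.16, 9.35 and 9.55, with a difference of -0.36 (adjusted p 0.342). With the block moody was raised too, and Gs2 and Gli lowered. Fat body and haemocyte markers (10 of 11) had 1 raised gene, Pxn, a peroxidasin of blood cells (difference 1.06, adjusted p 0.0022). Each measured marker of glia, neuroblasts and muscle had a group mean above the control range.

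Measures of RNA labelling also differed between the groups. The gap between the 3′ and 5′ control probe sets of actin was 1.59, 1.42 and 1.43 in wild type and 2.73, 2.82 and 2.77 in Sage overexpression, a difference of 1.29, and for GAPDH and eIF-4a the differences were 0.83 and 0.82. Within the groups array 2 had the smallest gap of wild type and the largest of Sage overexpression for all 3 controls. For actin these margins were small, at 1.42 against 1.43 in wild type and 2.82 against 2.77 in Sage overexpression. The median of 24 polyA spike-in probe sets, bacterial RNAs added before labelling, was 5.89, 6.33 and 5.17 in wild type and 4.48, 4.32 and 4.27 in Sage overexpression. The position of each probe set along its transcript was not used, and the part of labelling in the neuronal values was not tested.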

How the data were processed

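The authors deposited 1 table of log2 values per probe set and array, made with RMA and Partek per the submitters' processing notes, with no versions given. It holds 18952 probe sets, with values from 2.9 to 14.6 and array medians of 5.44 to 5.52. Control probe sets (183) were left out of the tests, and the platform annotation paired 13647 of the others with 1 gene, 402 with several and 4720 with none. Raw scans were not used, so background and saturation could not be checked, and the number of arrays limits the precision. As a guide to background, the group means of 70 control probe sets without a fly target ran from 3.23 to 5.35.

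Each gene's brightest probe set was tested with limma 3.58.1 in R 4.3.3 (lmFit and eBayes, no covariate, two-sided) over all 11983 genes, with Benjamini-Hochberg adjustment and a threshold of 0.05. The scripts were tested on simulated data. Nothing in the labels says that the replicates came from separate cultures, so p-values measure the spread between these samples, which may be technical. Deviations of same-numbered samples from their group means had correlations of 0.39, 0.67 and 0.33 across probe sets. Each was above 0.1, the rule used here for printing blocked values. Wild type 3 with Sage 1 gave 0.43 and wild type 1 with Sage 3 gave 0.26. A shared deviation at number 2 alone makes all correlations among numbers 1 and 3 positive. The rule therefore cannot show whether numbers 1 and 3 pair the samples. The labels do not say what a number marks. The blocked value is printed where it changes a call.

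All measured members are described. In other lists up to 4 genes past the threshold are named, or the one with the smallest p, and repo always. Genes that passed only with the block are named after their values were seen. Lists leave out the 32 genes, and a few genes stand in 2 lists. Members and lists were chosen with earlier results of these data known. No sequence is printed.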

Additional observations from a re-analysis of the deposited data

How the results depend on the processing

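Over 19 alternative settings, 569 of 593 results for single neuronal genes stayed on the same side of the threshold and 24 newly passed it, all upward. The 569 include the results at a threshold of 0.01, which could not newly pass. The number of raised genes, 0 as reported, was 4 with the replicate block, 4 without both arrays numbered 2 and 8 with array weights. In settings chosen after seeing the data, the replicate block gave 1 without both arrays numbered 1 (VAChT), 3 without those numbered 2 (VAChT, Rdl and Nrx-1) and 4 without those numbered 3 (Rim, cac, VAChT and Nrx-1). The number raised stayed at 0 with median centring, with quantile normalization and with trend and robust moderation. It was 0 too with probe sets averaged within genes, adjustment over probe sets and each array left out. With dim genes left out it was also 0, but that setting dropped the less bright members, VAChT, slo, Rdl and cac among them. At a threshold of 0.01 it could only be 0, since 0 passed at 0.05. The number lowered was 0 in all of these. The median difference was between 0.17 and 0.39 with each array left out, 0.17 with array weights and 0.22 to 0.32 otherwise. For all genes, 969 calls as reported became 1767 with the replicate block, 4058 with array weights and 1650 without wild type array 2, and fell to 274 to 362 when 1 Sage array was left out. Signs of 11 uncalled neuronal genes and of Cadps changed. Not counted is para, whose reported difference rounds to 0 and which ran from -0.18 to 0.19 with 1 array left out. Leaving out 1 array gave -0.30 to 0.71 for elav, -0.02 to 0.43 for Rop, -0.09 to 0.55 for cpx, -0.10 to 0.31 for Csp, -0.41 to 0.76 for unc-13, -0.19 to 1.48 for cac, -0.08 to 0.36 for Vmat, -0.08 to 0.15 for Shab, -0.75 to 0.46 for CadN, -0.09 to 0.60 for futsch and -0.63 to 0.14 for Cadps. Shab was -0.01 with median centring. Array weights gave -0.14 for elav, -0.04 for Csp and -0.18 for unc-13. Without both arrays numbered 2, cpx was -0.04 and Csp -0.05, with and without the replicate block. The replicate block without both arrays numbered 1 gave 0.01 for VGlut and -0.08 for Shab, and without those numbered 3 it gave -0.32 for elav, 0.03 for CadN and 0.04 for Cadps. The cause was not tested. Calls in the other lists varied most for transcription and RNA binding, from 2 to 21 genes. Values near the control range, up to 5.35, limit what can be read for VGlut, para, Shab, eag and nAChRalpha1. They also limit VAChT, brp and futsch, whose wild type means were 5.42, 5.43 and 5.17.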
